A study of Aspergillus nidulans with 12 samples.

Results

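Among 10681 measured genes of the filamentous fungus Aspergillus nidulans, 25 held transcripts that fell to at most 1/8 of their 17 h level at the late harvest in each of 3 strains. The rule took CPM (the reads counted for a gene scaled to the library's total) and averaged the 2 cultures of a group. It kept genes with a 17 h mean of at least 20 CPM in all 3 strains and a late mean of at most 1/8 of the 17 h mean in all 3. The transcripts were thus chosen by their measured late and 17 h levels, and the fall itself is given below as a description without a test.

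Poly(A) RNA came from 2 duplicate cultures in each of 6 groups, grown at 37 °C in a liquid minimal medium that held nitrate (10 mM) and glucose (50 mM). Groups were a rimO deletion (genotype delta_rimO) at 54 h and 17 h, a rimO overexpression (genotype OE_rimO) at 48 h and 17 h, and wild type A1153 at 48 h and 17 h. Late harvests followed the exhaustion of glucose by 8 h. Per the labels, glucose uptake was slower in the deletion strain, which was therefore harvested later. Its genotype and its later hour cannot be told apart in late comparisons. The sources used here give neither the number of transformants behind each modified strain nor the promoter of the overexpression. In bulk RNA, fewer cells with a transcript and less of it per cell cannot be told apart.

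Libraries held 9269951 to 17891416 counts. The files and the reference name no gene rimO, and general knowledge places it at AN7572. This gene held 51.0 to 59.7 CPM in the 4 libraries labelled deletion, 376 to 536 CPM in the 4 labelled overexpression, 500.4 and 502 CPM in wild type at 48 h and 86.1 and 92.2 CPM in wild type at 17 h. Reads of AN7572 thus remained in the libraries labelled deletion, and at 48 h the libraries labelled overexpression held less of it than wild type. Directions below compare the strains as labelled. The summed level of 7 conidiation genes (brlA, abaA, wetA, rodA, dewA, yA and vosA, markers of spore-forming cells) was 36.8 and 36.9 CPM in the 54 h deletion cultures, 4586 and 4704 CPM in the 48 h overexpression cultures and 1135 and 1813 CPM in the 48 h wild type cultures. At 17 h it was 22.03 to 27.4 CPM in all 6 libraries, and no marker was at 0 in any library. Most of the 48 h sums was rodA, at a mean of 4241 CPM in overexpression and 1218 CPM in wild type. At 54 h in the deletion strain, vosA averaged 21.5 CPM, against 23.8 CPM in wild type at 48 h. The other markers were lower there than in wild type. Between overexpression and wild type at 48 h, dewA was lower (5.93 against 8.25 CPM) and the other markers were higher. A further planned marker, wA, was not found and is not in the sum. The part of spore-forming cells in the results was not tested.

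Nitrate is a secondary nitrogen source for A. nidulans. It enters through transporters that include CrnA, is reduced to nitrite by nitrate reductase (NiaD) and then to ammonium by nitrite reductase (NiiA). The 3 genes lie close together and are switched on together by the pathway activator NirA and the general nitrogen activator AreA, and they are known to need nitrate and the lack of a preferred nitrogen source. Flavohaemoglobin, which in fungi removes nitric oxide, is known to be induced along with nitrate assimilation.

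The working description of the set as growth genes could not be checked for most of it. Of 25 transcripts, 24 matched the reference gene table and 7 carry a symbol there: niiA, fhpA, niaD, crnA, aspf2, bioDA and pmcC. The nitrate and ammonium list had 6 genes with a reference symbol, of which 3 were among the 25. None of 17 cell cycle and cytoskeleton genes, 10 amino acid synthesis genes, 6 cell wall synthesis genes, 3 nucleotide genes or 1 histone gene with 17 h means of at least 20 CPM was among them. Since 0.485% of the 5155 genes at that level were among the 25, lists of these sizes would be likely to hold none. The median fall in wild type was 1.61-fold for the cell cycle list and 1.98-fold for the amino acid list. The same held for glycolysis (0 of 2), hexose uptake and carbon repression (0 of 2), fatty acid and sterol synthesis (0 of 3), respiration (0 of 1), translation (0 of 1), conidiation (0 of 8) and siderophores (0 of 6), although 3 of the 6 siderophore genes fell at least 8-fold in wild type. In the glycolysis list, pgkA (phosphoglycerate kinase) fell 4.71-fold, 8.77-fold and 8.63-fold in deletion, overexpression and wild type. The sterol synthesis gene erg1 fell 3.01-fold, 20.4-fold and 14.4-fold. List medians in deletion, overexpression and wild type were 5.01-fold, 8.32-fold and 7.74-fold for glycolysis and 3.01-fold, 7.72-fold and 7.21-fold for fatty acid and sterol synthesis. The 1 translation gene, rpL3, fell 6.38-fold, 3.49-fold and 4.06-fold. These lists hold only genes with a reference symbol and are short, and the other 18 transcripts have no symbol, so their roles are not given here.

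The 25 transcripts together took 0.0595% and 0.0639% of the counts in the 54 h deletion cultures, against 1.06% and 1.10% in the deletion cultures at 17 h. In the overexpression strain they took 0.0135% and 0.0130% at 48 h, against 1.04% and 1.02% at 17 h. In wild type they took 0.00973% and 0.0101% at 48 h, against 1.07% and 1.04% at 17 h. The 17 h shares of the 3 strains lay close together, and the late share was highest in the deletion strain. The genes crnA, niaD and niiA alone made up 53.7% and 54.4% of the summed level of the 25 in the 54 h deletion cultures. They made up 22.9% and 21.4% in the 48 h overexpression cultures and 26.1% and 27.3% in the 48 h wild type cultures. At 17 h these shares were 46.7% and 49.1% in deletion, 58.4% and 60.1% in overexpression and 44.6% and 46.3% in wild type.

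**Figure D1:**
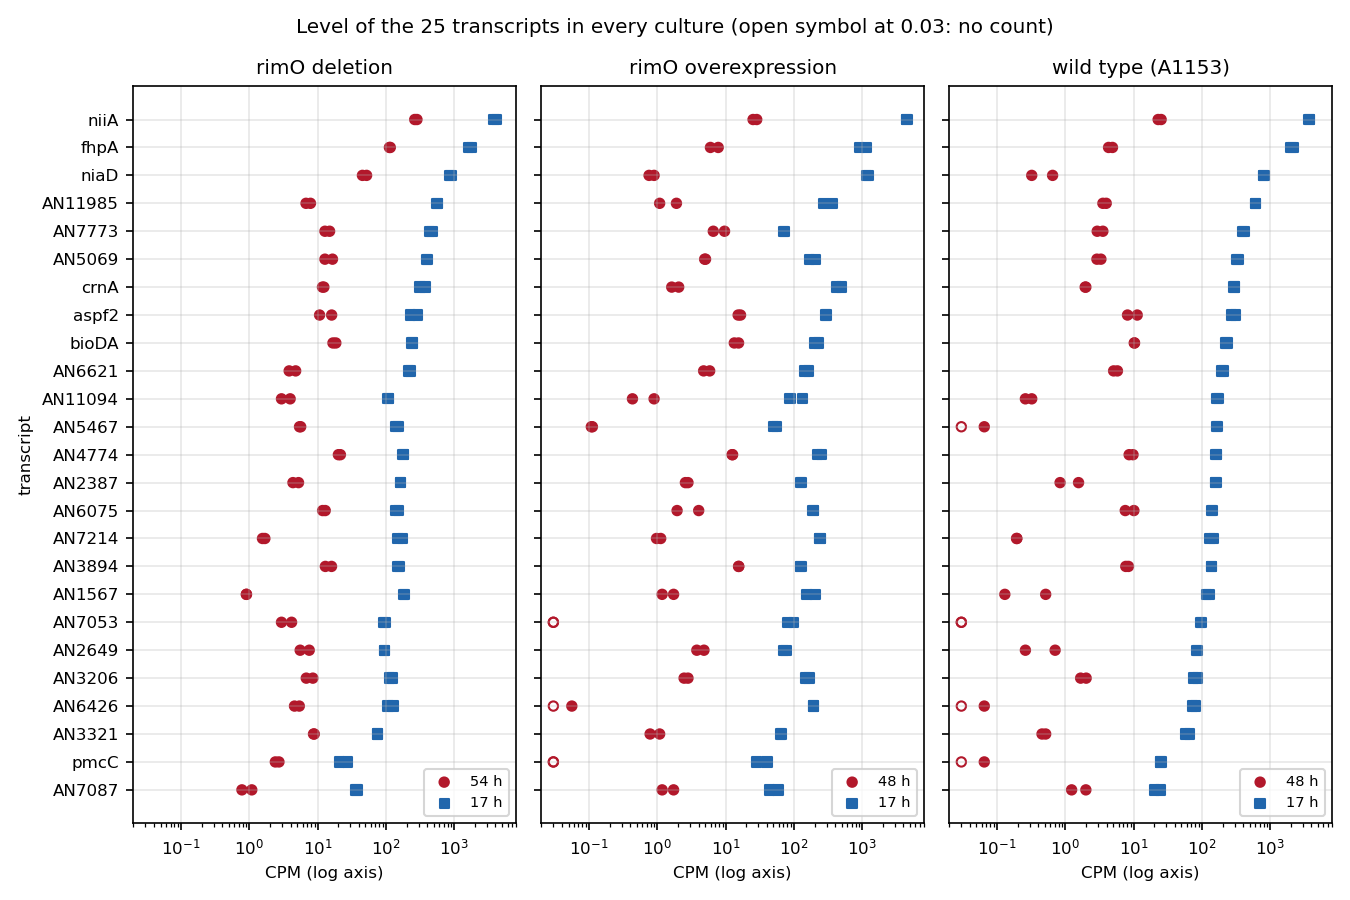
Level of each of the 25 transcripts (CPM, log axis) in every culture, with 1 panel per strain, circles for the late harvest, squares for 17 h and an open circle at the left for no count. Late and 17 h cultures do not overlap for any of the 25 in any strain, which the rule on group means made likely in advance. Late levels in the deletion strain lie further right than in wild type for most.

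Fewer genes fell far in the deletion strain than in the others, and those that did were partly other genes. Of 5155 genes with 17 h means of at least 20 CPM in all strains, 56 (1.09%) fell at least 8-fold in the deletion strain, 206 (4.00%) in the overexpression strain and 232 (4.50%) in wild type. In both overexpression and wild type 180 genes fell at least 8-fold, and 155 of them did not do so in the deletion strain. Of the 56 genes of the deletion strain, 29 also fell at least 8-fold in wild type, and 26 did so in neither other strain. The 25 make up 0.485% of the 5155. Their median fall was 23.4-fold in the deletion strain, 69.3-fold in the overexpression strain and 149.7-fold in wild type, against a median of 1.16-fold, 1.14-fold and 1.11-fold over the 5155 genes. The rule required falls of at least 8-fold, so a gap to the 5155 genes was fixed in advance. The smallest of the 3 falls was in the deletion strain for 19 of the 25, in the overexpression strain for 5 and in wild type for 1.

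**Figure D2:**
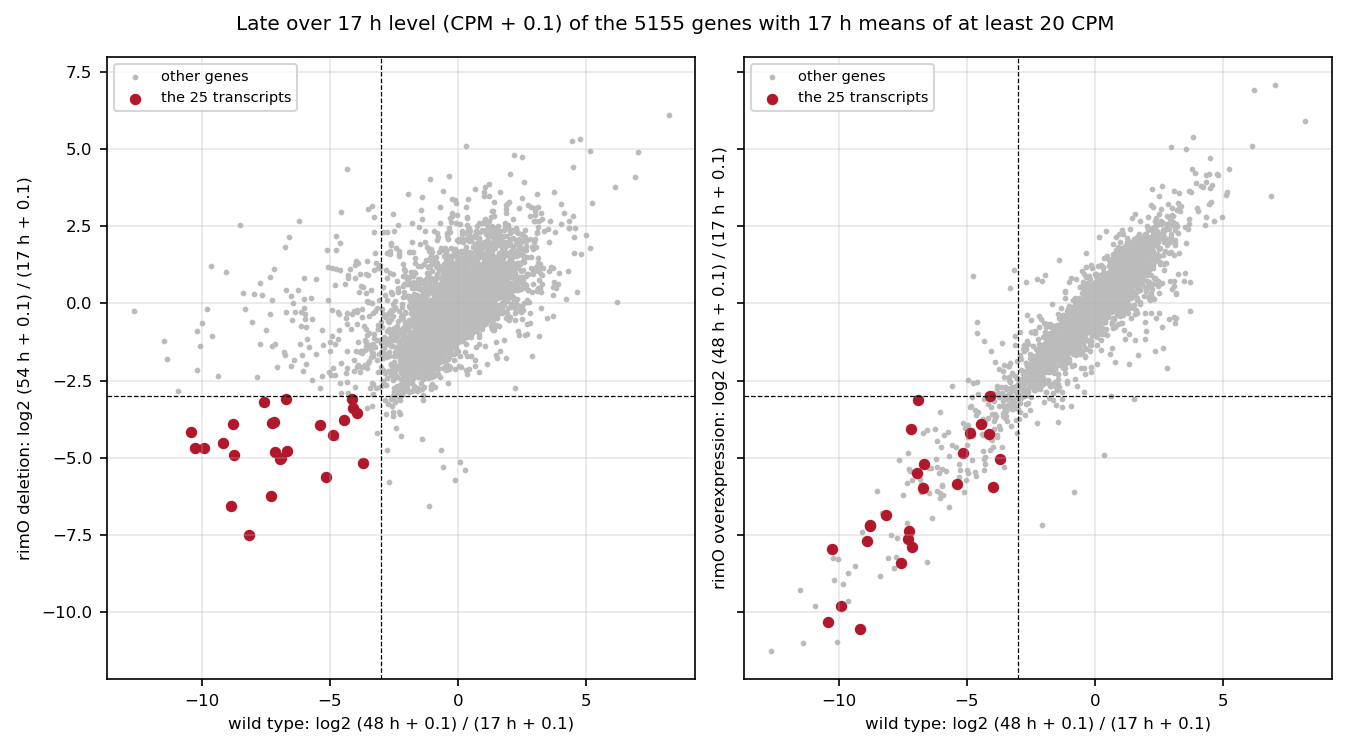
Late over 17 h level on the log2 scale, with 0.1 CPM added to both levels, in each modified strain (vertical axis) against wild type (horizontal axis) for 5155 genes, dashed lines marking 8-fold falls. The 25 transcripts fill the lower left corner by the rule, and many genes with deep falls in wild type lie above the dashed line in the deletion panel.

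Close to the threshold, AN3894 had the smallest fall that passed (8.14-fold, in the overexpression strain), followed by AN3321 and AN4774 (8.58-fold and 8.60-fold, both in the deletion strain). Just outside lay AN8913, AN7636 and AN2578, which fell 7.55-fold, 7.48-fold and 7.22-fold in the deletion strain. In wild type AN2578 fell 2589-fold, to a mean of 0.291 CPM at 48 h. On the level threshold, AN7087 and pmcC were the lowest that passed, with 22.3 CPM in wild type and 24.1 CPM in the deletion strain at 17 h. The rule had already set an 8-fold fall between group means. Judged by single cultures, 23 of the 25 kept at least 8-fold between their lowest 17 h and highest late culture in all 3 strains. AN7773 in the overexpression strain and pmcC in the deletion strain did not, at 7.26-fold and 7.76-fold.

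The nitrite reductase gene niiA (AN1007) fell far less in the deletion strain than in the others. It had 263 and 284 CPM in the deletion cultures at 54 h, against 3789 and 4159.7 CPM at 17 h. The overexpression cultures held 28.4 and 25.1 CPM at 48 h, against 4499 and 4389 CPM at 17 h. Wild type held 22.8 and 25.2 CPM at 48 h, against 3689 and 3734 CPM at 17 h. The fall was 14.5-fold in the deletion strain, 166-fold in the overexpression strain and 155-fold in wild type, and the late deletion cultures stood above all other late cultures.

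The nitrate reductase gene niaD (AN1006) had one of the widest ranges of fall between strains. It had 45.1 and 51.9 CPM in the deletion cultures at 54 h, against 852 and 890.4 CPM at 17 h. The overexpression cultures held 0.894 and 0.755 CPM at 48 h, against 1158 and 1228 CPM at 17 h, and wild type held 0.650 and 0.322 CPM at 48 h, against 798 and 806 CPM at 17 h. These are falls of 17.96-fold, 1446-fold and 1650.4-fold in deletion, overexpression and wild type. The nitrate transporter gene crnA (AN1008) had 11.7 and 12.3 CPM in the deletion cultures at 54 h, against 314 and 372 CPM at 17 h. It stood at 1.62 and 2.05 CPM in the overexpression cultures at 48 h, against 422 and 492 CPM at 17 h. Its level was 1.95 and 2.00 CPM in wild type at 48 h, against 293 and 298 CPM at 17 h. All 3 genes thus had the same order of late levels, with the deletion cultures above the overexpression and wild type cultures, which lay close together.

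The transcripts of the activators stood higher late than at 17 h. The pathway activator gene nirA (AN0098) had 138 and 123 CPM in the deletion cultures at 54 h, against 51.0 and 54.6 CPM at 17 h. It had 81.5 and 81.2 CPM in the overexpression cultures at 48 h, against 56.9 and 52.3 CPM at 17 h, and 81.7 and 82.6 CPM in wild type at 48 h, against 50.8 and 49.0 CPM at 17 h. The general nitrogen activator gene areA (AN8667) averaged 242 ± 6.97 CPM at 54 h and 90.3 ± 6.44 CPM at 17 h in the deletion strain (SD, n = 2 each, as below). It averaged 225 ± 36.8 CPM at 48 h and 111 ± 8.35 CPM at 17 h in the overexpression strain, and 229 ± 8.59 CPM at 48 h and 93.4 ± 8.57 CPM at 17 h in wild type. Late levels of both activators were above the 17 h levels in every strain. The product of glnA (AN4159), glutamine synthetase, makes glutamine from ammonium. Transcripts of glnA averaged 5515 ± 53.6 CPM at 54 h and 4199.7 ± 291 CPM at 17 h in the deletion strain. They averaged 1611 ± 645 CPM at 48 h and 5341 ± 89.1 CPM at 17 h in the overexpression strain. In wild type they averaged 3535 ± 103 CPM at 48 h and 4591 ± 13.9 CPM at 17 h.

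**Figure D3:**
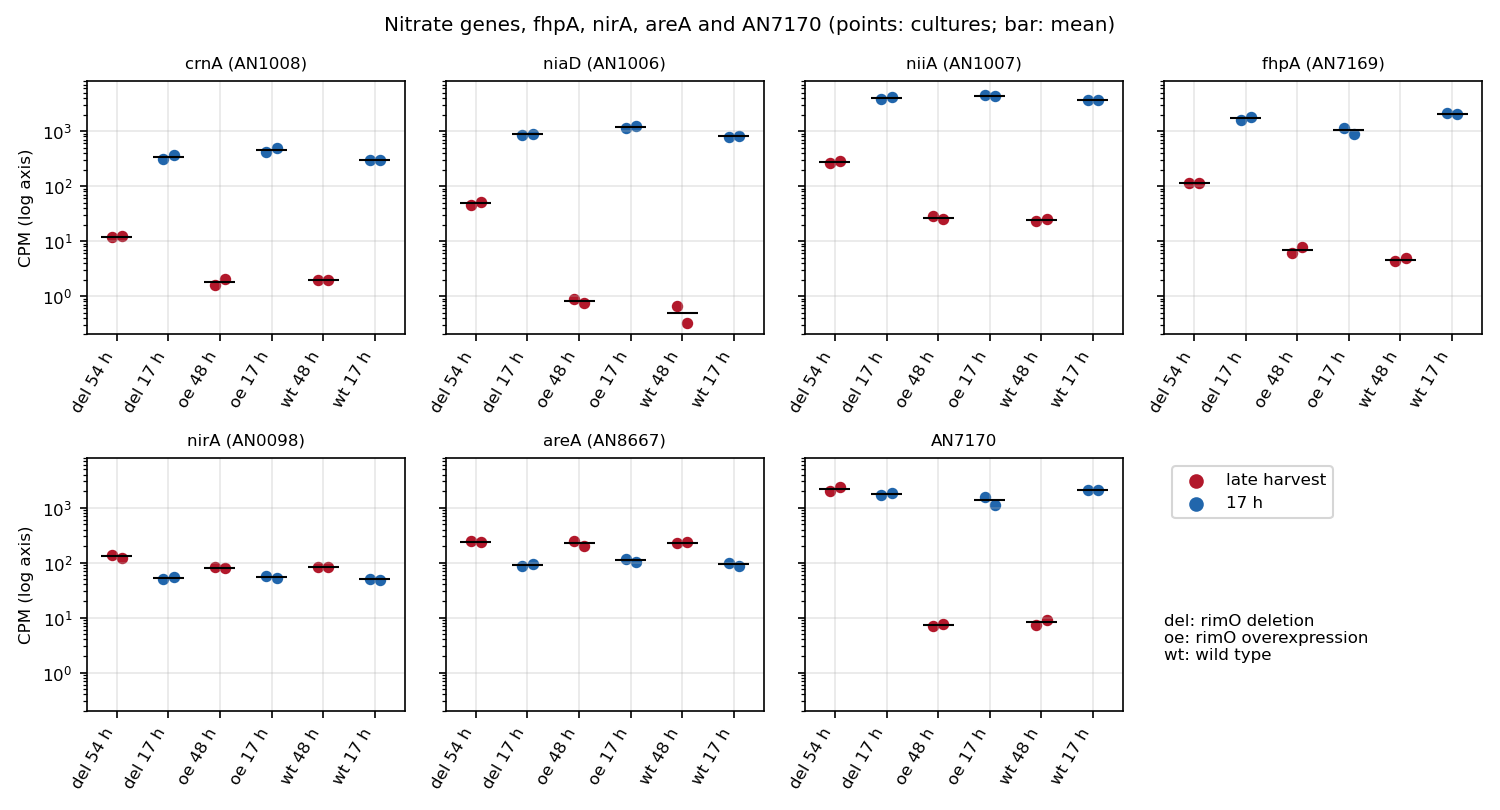
CPM (log axis) in each culture of crnA, niaD, niiA, fhpA, nirA, areA and AN7170 by strain and harvest, with bars at group means. The nitrate genes and fhpA are lower late in all strains, nirA and areA are higher late, and AN7170, the neighbour of fhpA, is low late in overexpression and wild type but at 2021 and 2326 CPM in the deletion cultures.

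The flavohaemoglobin gene fhpA (AN7169) showed the same order of late levels. It had 112 and 115 CPM in the deletion cultures at 54 h, against 1621 and 1778 CPM at 17 h. In the overexpression cultures it had 5.98 and 7.77 CPM at 48 h, against 1159 and 900.5 CPM at 17 h. In wild type it had 4.29 and 4.89 CPM at 48 h, against 2147 and 2012 CPM at 17 h. It fell 14.9-fold in the deletion strain, 149.8-fold in the overexpression strain and 453-fold in wild type, again with the deletion cultures highest late.

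The remaining genes with a symbol belong to other pathways. The gene aspf2 (AN1832) is named after an allergen of Aspergillus fumigatus, where its expression is known to depend on zinc. It had 10.65 and 15.99 CPM in the deletion cultures at 54 h, against 286 and 231 CPM at 17 h. It had 16.5 and 15.2 CPM in the overexpression cultures at 48 h, against 298 and 292 CPM at 17 h, and 8.12 and 11.3 CPM in wild type at 48 h, against 307 and 268 CPM at 17 h. Its falls of 19.4-fold, 18.6-fold and 29.7-fold in deletion, overexpression and wild type were among the most alike between strains, and the late deletion and wild type cultures overlapped.

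The biotin synthesis gene bioDA (AN6644) likewise fell by similar factors, 13.7-fold, 15.0-fold and 22.2-fold in deletion, overexpression and wild type. It had 18.4 and 16.7 CPM in the deletion cultures at 54 h, against 239.5 and 243 CPM at 17 h. It had 13.4 and 15.4 CPM in the overexpression cultures at 48 h, against 229 and 203 CPM at 17 h, and 10.2 and 10.3 CPM in wild type at 48 h, against 233 and 222 CPM at 17 h. Late cultures of the 3 strains did not overlap. The gene pmcC (AN8399), named as a calcium pump of the P-type ATPase family, was all but undetected late outside the deletion strain. It had 2.71 and 2.395 CPM in the deletion cultures at 54 h, against 21.0 and 27.1 CPM at 17 h. It had no count in the overexpression cultures at 48 h, against 40.3 and 28.4 CPM at 17 h, which is a level at least 313-fold lower late when 3 counts over the group are taken as the floor. In wild type it had 1 count at 48 h, against 745 counts at 17 h, a ratio of 773 with a 95% exact interval of 138 to 30554 that covers counting error only.

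Among the 18 transcripts without a symbol, the deepest falls common to all strains were those of AN1567, AN7214 and AN11985. AN1567 had 0.902 and 0.906 CPM in the deletion cultures at 54 h, against 179 and 184 CPM at 17 h. The overexpression cultures held 1.17 and 1.73 CPM at 48 h, against 155 and 204 CPM at 17 h, and wild type held 0.130 and 0.515 CPM at 48 h, against 126 and 116 CPM at 17 h. It fell 201-fold, 124-fold and 375-fold in deletion, overexpression and wild type, the deepest fall of the 25 when each is judged by its smallest of the 3. AN7214 fell 100.4-fold, 229.7-fold and 714-fold in deletion, overexpression and wild type, and AN11985 fell 77.1-fold, 215-fold and 162-fold. The wild type falls of AN7214 and AN1567 rest on 6 and 10 counts at 48 h. Next came AN2387 and AN11094, whose smallest falls were 33.8-fold and 31.0-fold, both in the deletion strain.

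Besides pmcC, 3 transcripts were nearly or wholly undetected late outside the deletion strain. AN7053 had no count at 48 h in overexpression or wild type, where it was at least 815-fold and at least 1001-fold lower than at 17 h, but had 2.95 and 4.14 CPM in the deletion cultures at 54 h, against 92.5 and 96.8 CPM at 17 h. AN6426 had 1 count at 48 h in overexpression and 1 in wild type, and 4.57 and 5.37 CPM in the deletion cultures at 54 h. AN5467 had 3 counts at 48 h in overexpression and 1 in wild type, and 5.41 and 5.63 CPM in the deletion cultures at 54 h. With pmcC and niaD these are the transcripts whose falls differed most between strains.

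The late levels of AN6621 lay close together in the 3 strains. It had 4.75 and 3.82 CPM in the deletion cultures at 54 h, 4.75 and 5.83 CPM in the overexpression cultures at 48 h and 5.78 and 5.08 CPM in wild type at 48 h. At 17 h it had 227 and 211 CPM, 145 and 162 CPM, and 204 and 191 CPM in deletion, overexpression and wild type. AN7087 was the one transcript with its smallest fall in wild type, 13.8-fold, against 39.7-fold in the deletion strain and 35.3-fold in the overexpression strain.

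Levels of different genes were compared per length with the log2 RPKM (counts scaled by gene length and library total) of the authors' deposited table, which gives 1 value per group. At 17 h in wild type, fhpA (9.99) and niiA (9.97) stood highest in the authors' deposited table, followed by AN11985 (9.26), AN5069 (8.14) and aspf2 (8.11). The authors' deposited table put pmcC lowest at 3.07, then AN7087 (5.03), AN3321 (5.49), AN3206 (5.50) and AN3894 (5.87). In the same column, niaD stood at 7.85 and crnA at 7.30 log2 RPKM in the authors' deposited table, so on this length-corrected scale niiA was above both.

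The strains were compared with wild type at each harvest, with edgeR over all 9670 tested genes and Benjamini-Hochberg adjusted p-values. Changes are log2 fold changes ± SE, with calls at an adjusted p under 0.05. The rule used the same levels, as a floor at 17 h and as a ceiling on the late level relative to 17 h, but not the differences between strains. Every one of the 25 passed the low-count filter through its 17 h libraries, and 20 passed it on the 48 h overexpression and wild type libraries alone, so the late counts below are descriptions of the set. At 17 h, 5 of the 25 were called between deletion and wild type (4 higher and 1 lower), against 1.66% of all genes tested (0.362% higher and 1.30% lower) and 2.15% of the 5155 genes that met the 17 h floor. The nitrate genes were not called, with niiA at 0.03 ± 0.10 (adjusted p = 0.952), niaD at 0.05 ± 0.10 (adjusted p = 0.907) and crnA at 0.15 ± 0.10 (adjusted p = 0.634). Nor was fhpA, at -0.36 ± 0.12 (adjusted p = 0.188). AN11094 fell by 0.73 ± 0.15 (adjusted p = 0.0236), and AN7087, AN6426, AN1567 and AN3206 rose, by 0.49 to 0.65. Without deletion replicate 1 at 17 h or without either wild type culture at 17 h, none of the 25 was called. Calls numbered 2 without deletion replicate 2 at 17 h and 3 without either deletion culture at 54 h, which gives part of the estimate of spread.

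In the overexpression strain at 17 h, 17 of the 25 were called, 9 higher and 8 lower, against 29.5% of all genes tested (15.1% higher and 14.5% lower) and 30.2% of the genes that met the 17 h floor. AN7773 had 69.8 and 72.9 CPM in the overexpression cultures, against 411 and 390.3 CPM in wild type, and fell by 2.59 ± 0.11 (adjusted p = 7.66e-10). AN5467 fell by 1.74 ± 0.08 (adjusted p = 2.83e-09), with 55.2 and 50.3 CPM in overexpression, against 167 and 162 CPM in wild type. Flavohaemoglobin fhpA fell by 1.11 ± 0.12 (adjusted p = 8.5e-06), so that its 17 h cultures of the 2 strains did not overlap. The nitrate genes went the other way, with crnA higher by 0.53 ± 0.10 (adjusted p = 0.000899) and niaD by 0.47 ± 0.10 (adjusted p = 0.00233), while niiA stood at 0.16 ± 0.10 (adjusted p = 0.241). The largest rises were those of AN6426 (1.24 ± 0.10, adjusted p = 4.67e-07), AN7087 (1.09 ± 0.15, adjusted p = 6.39e-05) and AN3206 (0.86 ± 0.10, adjusted p = 1.53e-05). The median change of the 25 was -0.06, against 0.03 over all genes tested.

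**Figure D4:**
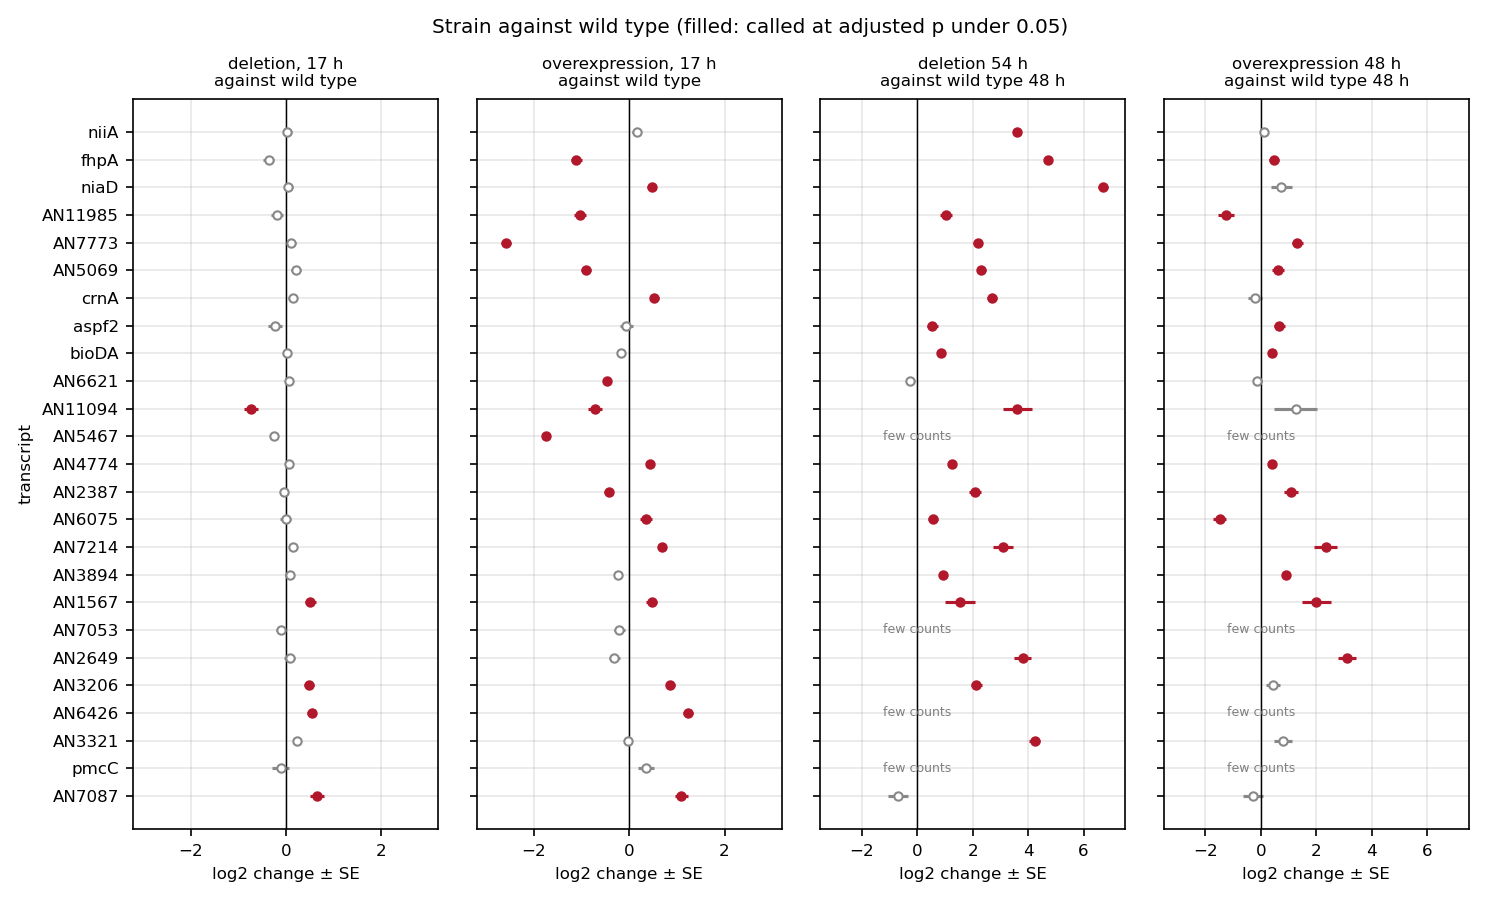
Log2 change ± SE (edgeR) of each of the 25 transcripts in each modified strain against wild type, at 17 h (left panels) and late (right panels), filled where called. Transcripts with at most 3 counts in a late group carry no late point. At 17 h the deletion panel holds 5 calls and the overexpression panel 17, and late the deletion panel lies almost wholly right of 0.

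At the late harvest, 23 of the 25 were called between deletion at 54 h and wild type at 48 h, all of them higher in the deletion strain, against 80.0% of all genes called and 40.2% called higher. Of these calls, 4 rest on 0 or 1 count in wild type at 48 h (AN7053, AN6426, AN5467 and pmcC). Without either wild type culture at 48 h, 1 call was lower, beside 21 or 22 higher. The rule held the deletion strain's late level under 1/8 of its 17 h level, which bounds these differences. Among the 232 genes that fell at least 8-fold in wild type, 97.8% were called higher in the deletion strain, so the count among the 25 is near that background. The largest rise outside the transcripts with at most 3 counts was niaD, higher by 6.70 ± 0.19 (adjusted p = 4.43e-13), with 15 counts in wild type. Next came fhpA (4.72 ± 0.16, adjusted p = 2.16e-12), AN3321 (4.24 ± 0.20, adjusted p = 9.42e-11), AN2649 (3.81 ± 0.30, adjusted p = 2.99e-08), AN11094 (3.60 ± 0.52, adjusted p = 1.75e-05) and niiA (3.59 ± 0.11, adjusted p = 1.05e-12). The transporter gene crnA rose by 2.69 ± 0.18 (adjusted p = 3.71e-09).

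For the 4 transcripts with 0 or 1 count in wild type at 48 h, ratios of counts stand in for the fit. Against wild type at 48 h, the 54 h deletion level of AN7053 was at least 36.3-fold higher. The ratio was 171 for AN5467 (95% interval 30.2 to 6779), 153 for AN6426 (27.1 to 6093) and 79.1 for pmcC (13.8 to 3161), by exact intervals for counting error only. The median log2 change of the 25 was 2.31, also with AN7053 at its bound, against -0.01 over all genes tested. The rule chose transcripts that fell in wild type, so all genes tested are an unlike background. No median was taken over the 232 genes, so the value is not shown to be particular to the 25. Smaller rises were those of bioDA (0.86 ± 0.11, adjusted p = 3.51e-06) and aspf2 (0.54 ± 0.20, adjusted p = 0.0202), but the aspf2 change was 0.10 without deletion replicate 2 at 54 h, 0.22 without wild type replicate 1 at 48 h and 0.83 without deletion replicate 1 at 54 h. Its call was lost in the first 2 of these, with limma-voom and in a fit of the compared groups alone. AN6621 (-0.25 ± 0.16, adjusted p = 0.151) and AN7087 (-0.70 ± 0.38, adjusted p = 0.101) were not called. In the deletion strain, nirA was also higher than in wild type late (0.75 ± 0.08, adjusted p = 6.16e-07), while areA differed by 0.16 ± 0.11 (adjusted p = 0.183).

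Between overexpression and wild type at 48 h, 13 of the 25 were called, 11 higher and 2 lower, against 41.1% of all genes tested, 23.0% higher and 18.1% lower. Among the 232 genes that fell at least 8-fold in wild type, 44.4% were called, 31.5% higher and 12.9% lower. Fitted on the groups compared alone, 8 were called. AN2649 had 4.81 and 3.78 CPM in the overexpression cultures, against 0.260 and 0.708 CPM in wild type, and rose by 3.11 ± 0.34 (adjusted p = 5.06e-06). AN7214 rose by 2.35 ± 0.42 (adjusted p = 0.000449), and AN1567 by 2.00 ± 0.52 (adjusted p = 0.00732), a call lost without wild type replicate 1 at 48 h (adjusted p = 0.0645). AN6075 had 4.02 and 1.94 CPM in overexpression, against 10.1 and 7.53 CPM in wild type, and fell by 1.48 ± 0.23 (adjusted p = 0.000132). AN11985 fell by 1.27 ± 0.29 (adjusted p = 0.00287). The nitrate genes were not called, with niiA at 0.11 ± 0.11 (adjusted p = 0.464), niaD at 0.74 ± 0.38 (adjusted p = 0.197) and crnA at -0.21 ± 0.26 (adjusted p = 0.571). Transcripts of aspf2 and bioDA rose by 0.66 ± 0.20 (adjusted p = 0.0148) and 0.42 ± 0.11 (adjusted p = 0.00858). The aspf2 call was lost without overexpression replicate 1 or wild type replicate 1 at 48 h, and the bioDA call without overexpression replicate 2 or in a fit of the compared groups alone. The median change was 0.49 over the 25 and 0.62 over the 21 with more than 3 counts in wild type, against 0.06 over all genes tested. All genes tested are again an unlike background, and no median was taken over the 232 genes.

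Gene order was taken from the reference table. The 24 placed transcripts lie on all 8 chromosomes, with 1 on chromosome II and 5 on chromosome IV. Only niaD and niiA are immediate neighbours of each other. One reference gene that the count table lacks lies between niiA and crnA. Of 41 other immediate neighbours in the count table, 14 had 17 h means of at least 20 CPM in all strains. Of these 14, 4 fell at least 8-fold in the deletion strain, 6 in the overexpression strain and 6 in wild type. Over all 5155 genes at that level the shares were 1.09%, 4.00% and 4.50%. Both neighbours of bioDA fell, AN6643 by 6.72-fold, 8.27-fold and 9.14-fold and AN6645 by 6.12-fold, 10.5-fold and 10.1-fold in deletion, overexpression and wild type. Next to aspf2 lies zrfC (AN1833), a zinc transporter gene, which fell 8.63-fold, 2.51-fold and 6.10-fold in the same order of strains.

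The neighbours of fhpA and AN5467 differed from them in the deletion strain. AN7170, next to fhpA, had 2021 and 2326 CPM in the deletion cultures at 54 h, against 1716 and 1821 CPM at 17 h. It fell 185-fold in the overexpression strain and 251-fold in wild type. AN5468, next to AN5467, had 20.4 and 19.7 CPM in the deletion cultures at 54 h, against 25.6 and 23.6 CPM at 17 h, and fell 94.5-fold and 94.8-fold in overexpression and wild type. Next to AN7773, AN7774 had 9.59 and 10.8 CPM in the overexpression cultures at 17 h, against 72.7 and 69.0 CPM in wild type at 17 h, so both genes of this pair were low there. Unlike AN7170 and AN5468, AN6620 (next to AN6621) fell most in the deletion strain, 45.1-fold, against 2.26-fold in the overexpression strain. In wild type AN6620 averaged 80.3 CPM at 48 h and 67.2 CPM at 17 h. AN6622, on the other side of AN6621, and AN2386, next to AN2387, fell 9.72-fold and 9.22-fold in the deletion strain. These neighbours were named after their values were seen.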

How the data were processed

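RNA-seq counts came from 12 libraries in 6 groups of 2 cultures. Per the submitters' processing notes, Trimmomatic, BWA, HTSeq, limma and edgeR were used, without versions. The genome build and strandedness are not given in the sources used here, so overlapping or near-identical genes are uncertain. The deposited counts are whole reads per gene. The authors' deposited log2 RPKM values give 1 value per group and served only to compare levels between genes. Of 10727 entries, 15 repeated identifiers and 31 upstream open reading frames (0.000199% of counts) were dropped.

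Levels are CPM of the library total. The quasi-likelihood test of edgeR 4.0.16 in R 4.3.3 used all libraries in 1 model, scaled by TMM, with 9670 genes left by filterByExpr and 6 residual degrees of freedom. The script was tested on simulated data. SE was derived as the absolute log2 change divided by the root of F. Cultures differed by more than counting error (chi-square per degree of freedom 10.0 to 47.3), and p-values measure the spread between duplicate cultures. Bounds take 3 counts over a group. A planned test of whether the late change differed between strains was computed but not read, since the rule chose on those changes.

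Symbols come from the reference gene table (ASM1142v1), which matched 9967 genes, 778 with a symbol. Of 350 list entries, those without a matching symbol were dropped, and sequences were not used here. The members and lists were chosen with earlier results of these data known. Named were the transcripts with a symbol, the 5 highest and 5 lowest per length, the 5 deepest falls and 5 widest differences between strains, the 3 highest and lowest called changes per comparison, those next to the thresholds and up to 4 entries per list, some left out for length.

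Alternatives were RLE, upper-quartile and total scaling, DESeq2 1.42.0, limma-voom 3.58.1, other filters, a replicate block, a fit of the compared groups alone, a threshold of 0.01 on the adjusted p, each library left out, and other thresholds of the rule.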

Additional observations from a re-analysis of the deposited data

How the results depend on the processing

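The rule found 112 genes with a late mean of at most 1/4 of the 17 h mean, all 25 among them, and 13 with at most 1/16, all of them among the 25. With TMM-scaled CPM it found 33, with 17 h means of 50 or more 23, with 10 or more 29, with every late culture at most 1/8 of every 17 h culture 23, and without any 1 library 24 to 25. Of the 25, the number called between deletion and wild type at 17 h was 5, and 0 at an adjusted p under 0.01, with 0 to 5 without 1 library. Between overexpression and wild type at 17 h it was 17, with 15 to 19 without 1 library. For the late harvest it was 23 for deletion (20 to 23 without 1 library) and 13 for overexpression (9 to 13 without 1 library, and 8 when only the groups compared were fitted, where 20 of the 25 passed the filter). The planned differences of change, which are not read because the rule chose on them, had 21 to 23 calls for deletion and 8 to 13 for overexpression without 1 library. Over all genes tested in the main fit, 66.8% were called for deletion and 28.9% for overexpression. Over 30 named changes and 660 repeats, 613 kept their call and direction, 47 lost the call and none reversed; the cause was not tested. The fhpA call between overexpression and wild type at 48 h (adjusted p = 0.0465) was lost in 11 of 22 repeats, up to an adjusted p of 0.229. Replicate numbers of the labels do not pair cultures by any stated source (correlations of same-numbered deviations from -0.154 to 0.105). With the replicate block, calls numbered 4 and 23 for deletion and 17 and 12 for overexpression at 17 h and late, and 23 and 13 for the differences of change. The motif shares planned for promoters were not run, since no promoter sequence was used here. Depth limits the late levels of AN7053, AN6426, AN5467 and pmcC most. Wild type at 48 h also held few counts of AN7214 (6), AN11094 (9), AN1567 (10), niaD (15), AN2649 (15) and AN3321 (15). Their folds against that group are imprecise too.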
